A study of Mus musculus with 6 samples.

Results

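The lecticans, tenascins and link proteins form the hyaluronan-based matrix of the central nervous system, and their transcripts were followed in mouse optic nerve after Nf1 had been targeted in myelinating glia. The 10 genes were chosen by name: the lecticans Acan, Bcan, Ncan and Vcan, the tenascins Tnr and Tnc, and the link protein genes Hapln1, Hapln2, Hapln3 and Hapln4. They are 10 of 24062 genes in the deposited count files, and all 10 were among the 16315 genes with enough counts to be tested. The 3 mutant libraries came from PlpCreERT2;Nf1flox/flox mice, in which a transgenic, tamoxifen-inducible Cre is active in those glia and deletes the floxed part of both Nf1 alleles. The 3 control libraries carried no Cre by their labels, control library 1 being Nf1flox/flox and control libraries 2 and 3 being Nf1flox/+. All animals were treated with tamoxifen as adults over 2 months old, and nerves were taken 1 month later. The labels do not say whether a library is 1 animal or a pool, so the p-values given here are set against library-to-library spread alone, which could be technical.

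Lecticans are chondroitin sulfate proteoglycans whose amino-terminal end binds hyaluronan and whose carboxy-terminal lectin domain binds tenascins. Link proteins hold the bond between a lectican and hyaluronan, and tenascin-R joins lecticans into a lattice. Around neuronal cell bodies this lattice is the perineuronal net, in which aggrecan, neurocan, brevican, Hapln1, Hapln4 and tenascin-R are typical parts. In white matter a related matrix surrounds the nodes of Ranvier, where brevican, versican, tenascin-R and Hapln2 (also called Bral1, made by oligodendrocytes) are found.

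Total counts ranged from 13555756 to 23662698 per library. Mature oligodendrocyte and astrocyte markers were abundant in the libraries, with summed levels of at least 4660 and 5650 CPM (counts scaled to library size). Nf1 counted over the whole gene had 226 to 433 CPM in mutant libraries and 337 to 400 CPM in control libraries (log2 fold change -0.23, SE 0.28, edgeR adjusted p 0.703), a count that does not resolve the deleted part and does not check the labels. The mutant libraries did not form 1 kind. Mutant libraries 1 and 3 had low myelin transcripts and high neuronal ones, and mutant library 2 had a summed myelin marker level above the controls. The summed neuron marker level of mutant library 2, 1770 CPM, was below mutant libraries 1 and 3 but also above the controls, at 587 to 1070 CPM. Xist was above 1000 counts in all 3 mutant libraries and in control library 2, whereas control libraries 1 and 3 carried Y-linked transcripts, so that sex markers and genotype were in part confounded. For the members and the genes named from lists of this matrix, both values are given where leaving out mutant library 2 changed a call. For cell type markers, the numbers called are given with and without that library.

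Each lectican gene lies beside a link protein gene, with 0 annotated genes between them, in the deposited mm10 annotation. Ncan (chr8:70093085-70120844, minus strand, 15 exons) and Hapln4 (chr8:70083529-70090862, plus strand, 5 exons) are 2.22 kb apart. Vcan (chr13:89655310-89742512, minus strand, 15 exons) and Hapln1 (chr13:89540636-89611832, plus strand, 5 exons) are 43.5 kb apart. Bcan (chr3:87987531-88000356, minus strand, 14 exons) and Hapln2 (chr3:88021750-88027511, minus strand, 7 exons) are 21.4 kb apart. Acan (chr7:79053483-79115099, plus strand, 17 exons) and Hapln3 (chr7:79117027-79131018, minus strand, 5 exons) are 1.93 kb apart. Tnr (chr1:159523769-159924922, plus strand, 23 exons) and Tnc (chr4:63959785-64047015, minus strand, 26 exons) stand alone. None of the 10 genes shares an exon base with another gene of the deposited annotation or of GENCODE M21 basic, so counting without strand did not mix them with a partner annotated there.

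The promoters of Ncan and Hapln1, the genes that passed the test, and of Hapln2, the member whose level differed most between mutant libraries, are printed for comparison. RefSeq starts (GRCm38.p6, the mm10 assembly) were matched for 9 of the 10 genes, and for these 3 they coincide with the first base of the deposited annotation. The 250 bases before each start are given in the direction of transcription, from chr8:70120845-70121094 (minus strand), chr13:89540386-89540635 (plus strand) and chr3:88027512-88027761 (minus strand). Capitals mark matches, on either strand, to the letters CCAAT of the box of that name, a TATA box spelled TATAAA, a GC box spelled GGGCGG, an E-box spelled CANNTG, an AP-1 site spelled TGANTCA, a Sox HMG-box motif spelled ACAAAG or a cyclic AMP response element spelled TGACGTCA, and no marked matches overlap.
Ncan: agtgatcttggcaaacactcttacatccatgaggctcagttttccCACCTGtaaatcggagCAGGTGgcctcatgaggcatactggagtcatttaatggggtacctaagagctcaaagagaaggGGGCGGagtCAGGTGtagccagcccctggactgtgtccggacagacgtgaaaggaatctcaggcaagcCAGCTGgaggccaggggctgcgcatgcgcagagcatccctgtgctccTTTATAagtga
Hapln1: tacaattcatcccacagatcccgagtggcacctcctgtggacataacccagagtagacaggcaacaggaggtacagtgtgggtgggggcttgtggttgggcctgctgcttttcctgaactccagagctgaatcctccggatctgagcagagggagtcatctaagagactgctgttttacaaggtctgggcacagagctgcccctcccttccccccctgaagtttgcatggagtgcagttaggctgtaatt
Hapln2: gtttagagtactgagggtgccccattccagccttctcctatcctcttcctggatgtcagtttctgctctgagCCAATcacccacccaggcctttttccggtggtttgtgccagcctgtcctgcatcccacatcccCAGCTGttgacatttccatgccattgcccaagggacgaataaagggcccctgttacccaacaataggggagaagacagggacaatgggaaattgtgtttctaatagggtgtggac
Ncan held 4 E-boxes, 1 GC box and 1 TATA box, the last on the opposite strand and 11 bases before the start. Hapln2 held 1 CCAAT box and 1 E-box, and Hapln1 held a match to none of the 7 motifs. An E-box was found in 66.2%, a CCAAT box in 33.8%, a GC box in 32.7% and a TATA box in 12.4% of 32817 promoter windows of the same length. The G and C content was 54.4% in the Ncan and Hapln1 windows and 52.4% in that of Hapln2, against a median of 52.4% over all windows. The windows of Ncan and Hapln1 thus had no motif of this set in common, and no match says only that these letters are not in this window.

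Of the 10 genes 2 rose in mutant nerves, Ncan and Hapln1, and 0 fell, by edgeR's quasi-likelihood test with Benjamini-Hochberg adjustment over all genes tested and a threshold of 0.05. Over all tested genes the same call was made for 3.29%, with 2.95% called higher and 0.337% called lower. In 4 of the 10 genes, Ncan, Hapln1, Tnr and Hapln3, every mutant library lay above every control library, and in 0 every one lay below. Of all tested genes 24.0% did not overlap between the groups, 12.5% with the mutant libraries above and 11.5% with them below. The median log2 fold change of the 10 genes was 0.42, against -0.002 for all genes tested. A higher or lower level of a transcript in a nerve sample can mean, among other things, changed cell numbers of a type, a changed mix of tissue in the sample or changed RNA per cell. These data cannot tell such changes apart.

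**Figure D1:**
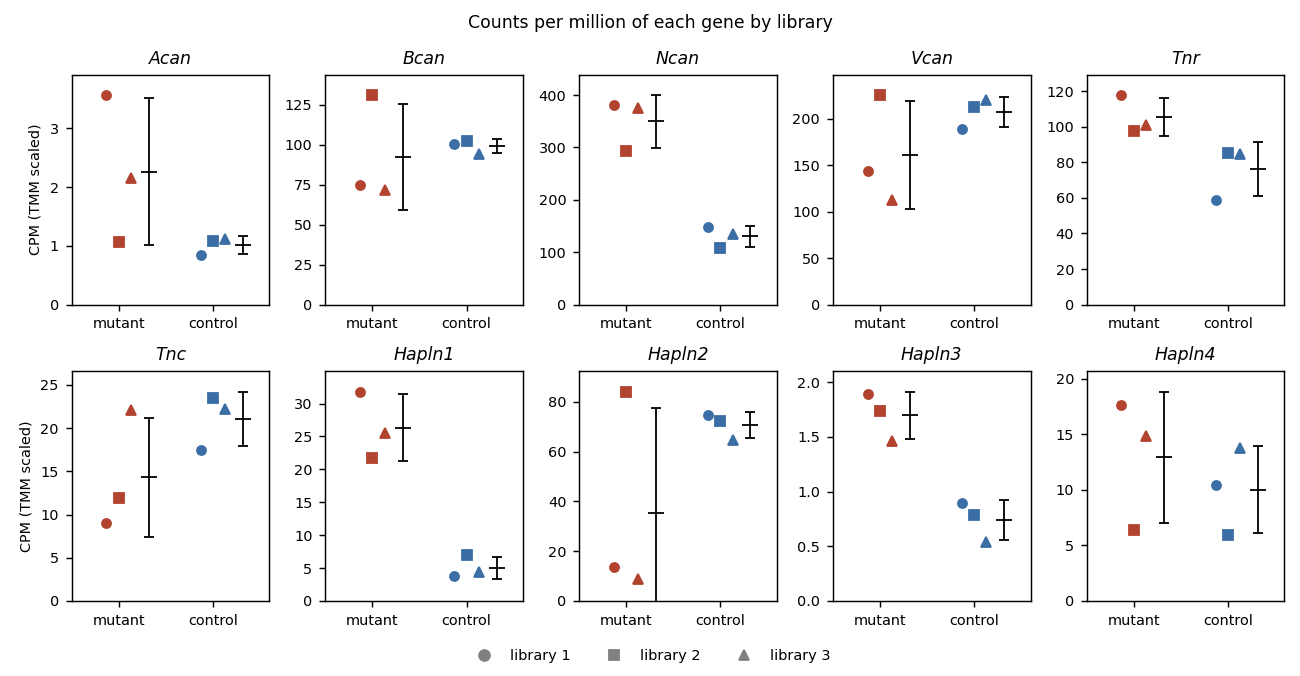
CPM, TMM-scaled, of the 10 genes in each library (y axis, linear from 0), with mutant libraries left of control libraries, the symbol giving the library number, and the bar the mean ± SD (n = 3 each, cut at 0). Ncan, Hapln1, Tnr and Hapln3 do not overlap between groups, and Hapln2 is near the controls in mutant library 2 and low in mutant libraries 1 and 3.

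Neurocan, encoded by Ncan, is a secreted lectican of brain tissue made by neurons and astrocytes. It had 382, 292 and 375 CPM in mutant libraries 1, 2 and 3, against 149, 108 and 134 CPM in control libraries 1, 2 and 3. The lowest mutant library stood 1.97-fold above the highest control library, and the 3 mutant libraries differed among themselves by up to 1.31-fold. The group means were 349.6 ± 49.7 CPM in mutant and 130.2 ± 20.5 CPM in control libraries (SD, n = 3 each), or 1.42 on the log2 scale (SE 0.24, edgeR adjusted p 0.0183). It was 1.17 for mutant library 2 alone against the controls (edgeR adjusted p 0.0336) and 1.55 without that library (edgeR adjusted p 0.000293). The call was lost without mutant library 1 or 3 (edgeR adjusted p 0.0741 and 0.0570) and without control library 1, 2 or 3 (0.101, 0.153 and 0.101), where the log2 fold change was 1.32 to 1.54.

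Brevican, encoded by Bcan, is made by astrocytes and oligodendrocyte lineage cells and is found at nodes and in perineuronal nets. It had 74.7, 130.7 and 71.5 CPM in mutant libraries 1, 2 and 3, against 100.5, 102 and 93.9 CPM in control libraries 1, 2 and 3. Mutant library 2 was above all controls and mutant libraries 1 and 3 below them, so the groups overlapped (log2 fold change -0.10, SE 0.27, edgeR adjusted p 0.879). Versican, encoded by Vcan, is made in white matter by oligodendrocyte precursors and other cells, in splice forms that counts per gene do not separate. It had 144, 225 and 113 CPM in mutant libraries 1, 2 and 3, against 189, 213 and 220.3 CPM in control libraries 1, 2 and 3. Its order over the mutant libraries was that of Bcan, and the log2 fold change, -0.37, did not pass (SE 0.28, edgeR adjusted p 0.521). Without mutant library 2 Vcan passed at -0.68 (edgeR adjusted p 0.0291), in a comparison that called 27.0% of all genes tested.

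Aggrecan, encoded by Acan, is the defining lectican of perineuronal nets and of cartilage. It was low, with 66, 14 and 31 counts in mutant libraries 1, 2 and 3, against 17, 26 and 27 counts in control libraries 1, 2 and 3. Mutant library 2 lay within the control range at 1.06 CPM, and mutant libraries 1 and 3 lay above it at 3.56 and 2.16 CPM. The difference of 1.16 on the log2 scale (SE 0.60, edgeR adjusted p 0.333) did not pass, and it was 0.06 for mutant library 2 alone and 1.5 without that library (edgeR adjusted p 0.0764).

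Hapln1, the link protein gene first known from cartilage and a part of perineuronal nets, had the largest fold change of the 10. It had 31.8, 21.8 and 25.5 CPM in mutant libraries 1, 2 and 3, against 3.76, 6.97 and 4.44 CPM in control libraries 1, 2 and 3. The lowest mutant library was 3.12-fold above the highest control library. The means were 26.3 ± 5.06 CPM in mutant and 5.06 ± 1.69 CPM in control libraries (SD, n = 3 each), or 2.38 on the log2 scale (SE 0.33, edgeR adjusted p 0.00853). For mutant library 2 alone it was 2.10 (edgeR adjusted p 0.0187), and without that library 2.5 (edgeR adjusted p 0.000279). The call was lost without control library 1 or control library 3, where the log2 fold change was 2.21 and 2.29 (edgeR adjusted p 0.0733 and 0.0599).

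Hapln2, the oligodendrocyte link protein of nodes of Ranvier, split the mutant libraries. It had 13.5, 84.0 and 8.86 CPM in mutant libraries 1, 2 and 3, against 74.9, 72.3 and 64.8 CPM in control libraries 1, 2 and 3. The highest mutant library was 9.48-fold above the lowest one, whereas the controls differed by at most 1.15-fold. On the log2 scale the difference was -1.0 (SE 0.71, edgeR adjusted p 0.483) over all libraries and -2.65 (edgeR adjusted p 8.25e-05) without mutant library 2. For mutant library 2 alone it was 0.25 (edgeR adjusted p 0.729), so that the mean of 35.5 CPM describes no mutant library.

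Hapln3, a link protein gene expressed outside the brain as well, was low in each library. It had 35, 23 and 21 counts in mutant libraries 1, 2 and 3, against 18, 19 and 13 counts in control libraries 1, 2 and 3. On the CPM scale these were 1.89, 1.74 and 1.47 in mutant libraries 1, 2 and 3, against 0.892, 0.788 and 0.539 in control libraries 1, 2 and 3. The groups did not overlap, but the difference of 1.20 on the log2 scale (SE 0.56, edgeR adjusted p 0.285) did not pass. Hapln4, the Bral2 link protein of perineuronal nets, had 17.6, 6.35 and 14.8 CPM in mutant libraries 1, 2 and 3, against 10.4, 5.89 and 13.7 CPM in control libraries 1, 2 and 3. The groups overlapped (log2 fold change 0.37, SE 0.45, edgeR adjusted p 0.699), with mutant libraries 1 and 3 above all controls and mutant library 2 among them. It was -0.65 for mutant library 2 alone (edgeR adjusted p 0.642) and 0.7 without that library (edgeR adjusted p 0.174).

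Tenascin-R, encoded by Tnr, is made by oligodendrocytes and some neurons and clusters lecticans at nodes and nets. It had 118, 97.6 and 101 CPM in mutant libraries 1, 2 and 3, against 58.8, 85.4 and 85.0 CPM in control libraries 1, 2 and 3. The groups did not overlap, with 1.14-fold between the lowest mutant and the highest control library, and the difference of 0.47 on the log2 scale (SE 0.23, edgeR adjusted p 0.313) did not pass. Unlike Hapln2, Tnr was above the controls in mutant libraries 1 and 3. Tenascin-C, encoded by Tnc, is a developmental matrix protein kept in adult astrocytes and connective tissue. It had 9.01, 11.9 and 22.0 CPM in mutant libraries 1, 2 and 3, against 17.5, 23.5 and 22.2 CPM in control libraries 1, 2 and 3. Mutant library 3 lay within the control range and mutant libraries 1 and 2 below it (log2 fold change -0.56, SE 0.36, edgeR adjusted p 0.432).

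**Figure D2:**
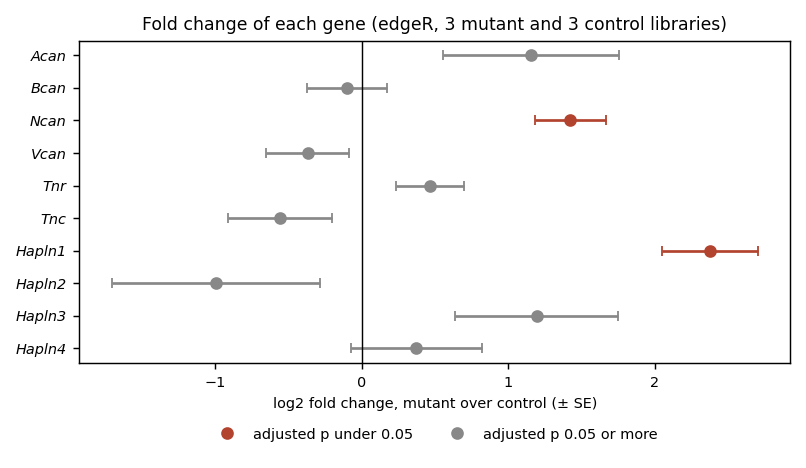
Log2 fold change of each gene, mutant over control (x axis), with its SE as bars, from edgeR over 3 mutant and 3 control libraries. Ncan at 1.42 and Hapln1 at 2.38 passed the threshold of 0.05 on the adjusted p, and Hapln2 has the widest error (SE 0.71).

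Levels were compared between genes per length, as CPM divided by the exon length in kb. That length spans all annotated exons, so a gene that skips long exons, as Vcan does in brain, is understated. In mutant libraries Ncan had the highest mean, 48.8 ± 6.94 CPM per kb, and its range lay apart from that of the next gene by mean, Bcan, with 24.2 ± 8.74 CPM per kb. The range of Ncan, 40.8 to 53.3 CPM per kb, met that of Hapln2, 4.31 to 40.9 CPM per kb, since Hapln2 was level with Ncan in mutant library 2. Bcan, Tnr (19.6), Hapln2 (17.3) and Vcan (10.9 CPM per kb) followed with ranges that overlapped from each to the next. The range of Vcan lay apart from that of Hapln1 (5.21 CPM per kb), the next by mean. The wide range of Hapln2 also overlapped those of Hapln1, 4.31 to 6.29, and Hapln4, 1.78 to 4.93 CPM per kb. Hapln4 (3.62), Tnc (2.02) and Hapln3 (1.18 CPM per kb) again overlapped neighbour by neighbour, and Acan came last with 0.307 CPM per kb. In control libraries Hapln2 was the highest, with 34.4 ± 2.54 CPM per kb, followed by Bcan with 26.0 ± 1.14 and Ncan with 18.2 ± 2.86 CPM per kb. Ncan and Tnr (14.2) overlapped there, as did Tnr and Vcan (14.1 CPM per kb). Tnc (2.97) and Hapln4 (2.80) also overlapped, and below them Hapln1 (1.00), Hapln3 (0.516) and Acan (0.138 CPM per kb) each stood apart from the next. By mean, Ncan thus held the first place in mutant libraries and the third in control libraries. Hapln2 had the first place in control libraries, and its mean of 17.3 CPM per kb in mutant libraries describes no single one of them.

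The make-up of the lectican family differed between the groups. Ncan held 64.0%, 45.0% and 66.1% of the family's CPM per kb in mutant libraries 1, 2 and 3, against 34.5%, 26.7% and 31.9% in control libraries 1, 2 and 3. Bcan held 28.4% ± 8.21 in mutant and 44.5% ± 2.68 in control libraries, and Vcan 12.8% ± 3.70 in mutant and 24.2% ± 2.46 in control libraries (SD, n = 3 each). Shares within a family depend on each other, so a lower share need not be a lower level. Bcan held 37.9% in mutant library 2, where its CPM was above all controls. The family sum was 84.3 ± 5.84 CPM per kb in mutant and 58.4 ± 1.77 CPM per kb in control libraries (SD, n = 3 each). Among link proteins Hapln2 held 34.5%, 84.9% and 29.7% in mutant libraries 1, 2 and 3, against 89.5%, 90.8% and 86.1% in control libraries 1, 2 and 3. Hapln1 held 32.9%, 8.94% and 34.7% in mutant libraries 1, 2 and 3, against 1.83%, 3.56% and 2.40% in control libraries 1, 2 and 3. In mutant library 2 the share of Hapln1 was above the controls while Hapln2 still made up most of the family. Between the tenascins, Tnr held 90.6% ± 4.42 in mutant and 82.6% ± 0.937 in control libraries (SD, n = 3 each), the rest being Tnc.

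**Figure D3:**
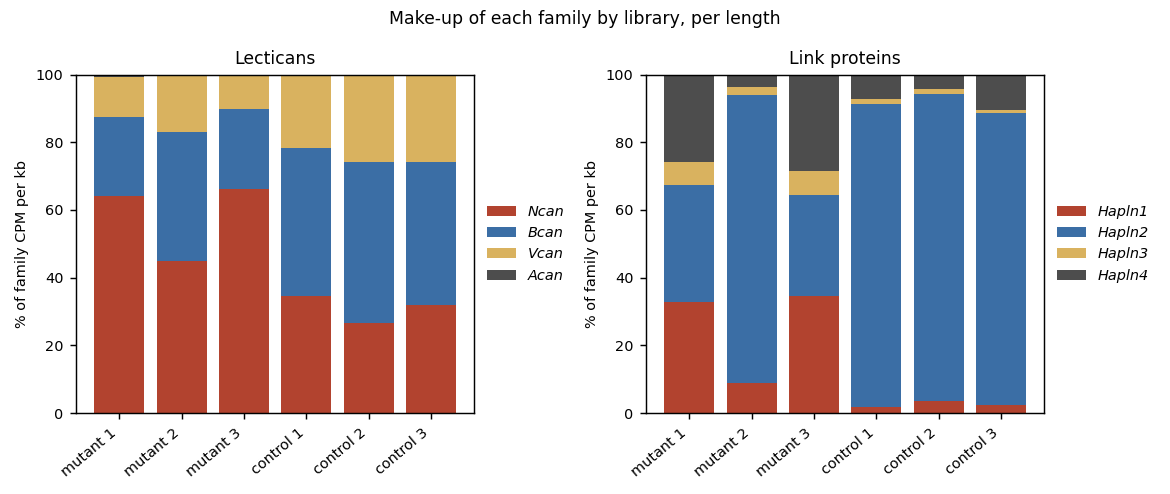
Share of each gene in the summed CPM per kb of its family (y axis, percent) in each library, mutant left of control, for lecticans and link proteins. Ncan is 45.0% to 66.1% of lecticans in mutant and 26.7% to 34.5% in control libraries, and Hapln2 is 29.7% to 84.9% of link proteins in mutant and 86.1% to 90.8% in control libraries.

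The neighbouring genes did not keep a fixed ratio. The log2 ratio of Vcan over Hapln1, per length, was 0.64, 1.83 and 0.61 in mutant libraries 1, 2 and 3, against 4.11, 3.40 and 4.09 in control libraries 1, 2 and 3. Vcan and Hapln1 had log2 fold changes of -0.37 and 2.38, and only that of Hapln1 passed. That of Bcan over Hapln2 was 1.57, -0.25 and 2.12 in mutant libraries 1, 2 and 3, against -0.47, -0.39 and -0.35 in control libraries 1, 2 and 3. That of Ncan over Hapln4 averaged 3.87 ± 0.58 in mutant and 2.77 ± 0.46 in control libraries, and that of Acan over Hapln3 -2.11 ± 0.86 in mutant and -1.88 ± 0.57 in control libraries (SD, n = 3 each). These ratios are descriptions without a test.

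**Figure D4:**
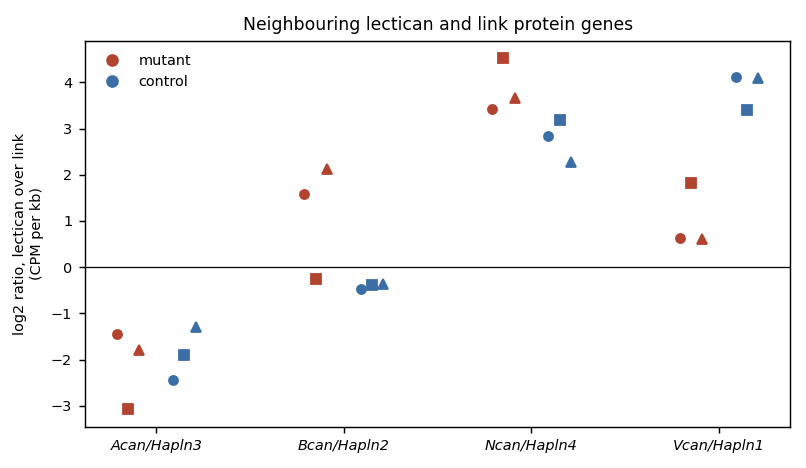
Log2 ratio of each lectican gene over its neighbouring link protein gene, in CPM per kb (y axis), with mutant libraries left of control libraries and the library number as circle, square and triangle for 1, 2 and 3. Vcan over Hapln1 lies between 0.61 and 1.83 in mutant and between 3.40 and 4.11 in control libraries, and Acan over Hapln3 overlaps between groups.

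Summed markers of several cell types were set beside these genes, library by library. The summed level of 10 neuron markers was 6260, 1770 and 4380 CPM in mutant libraries 1, 2 and 3, against 587, 740 and 1070 CPM in control libraries 1, 2 and 3. Of these 10 markers 5 rose and 7 were above the controls in every mutant library. Over all tested genes 2.95% were called higher and 12.5% lay above. No marker had 0 counts in any library, but Slc17a7 was near the floor in mutant library 2 at 0.0756 CPM. It had 140 and 21.6 CPM in mutant libraries 1 and 3, and 0.249 to 0.644 CPM in control libraries. The sum of the 10 markers differed 3.54-fold between mutant libraries, where Ncan differed 1.31-fold and Hapln1 1.46-fold. Snap25, a synaptic protein gene, had 2400, 606 and 1710 CPM and Camk2a, a synaptic kinase gene, 1480, 599 and 917 CPM in mutant libraries 1, 2 and 3. In control libraries 1, 2 and 3 Snap25 had 200, 361 and 543 CPM and Camk2a 80.2, 72.3 and 119 CPM. Camk2a passed the test (edgeR adjusted p 0.00451) and Snap25 did not (edgeR adjusted p 0.0761). The part of neuronal transcripts in the rise of Ncan and Hapln1 was not tested.

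The summed level of 10 mature oligodendrocyte markers was 5430, 33800 and 4660 CPM in mutant libraries 1, 2 and 3, against 26000, 26700 and 25900 CPM in control libraries 1, 2 and 3. On the log2 scale mutant libraries 1, 2 and 3 were -2.27, 0.37 and -2.49 from the control mean, where Hapln2 stood at -2.34, 0.25 and -2.92. Of these 10 markers 0 passed by edgeR over all libraries (1 at an unadjusted p under 0.05, 1 by DESeq2, 0 by limma-voom). With all libraries, 3133 of all 16315 tested genes were at an unadjusted p under 0.05. DESeq2 then called 482 of all genes lower and limma-voom 88. All 10 markers fell without mutant library 2, where 13.8% of all genes were called lower. Mbp, the gene of myelin basic protein, had 2720, 17900 and 1940 CPM in mutant libraries 1, 2 and 3, against 14300, 13600 and 13000 CPM in control libraries 1, 2 and 3. The part of oligodendrocyte content in the level of Hapln2 was not tested. Markers of oligodendrocyte precursors, a source of Vcan, summed to 333, 543 and 354 CPM in mutant libraries 1, 2 and 3, against 495 to 630 CPM in control libraries. Astrocyte markers summed to 5650 to 7180 CPM in mutant and 5760 to 6020 CPM in control libraries, and 7 of the 10 had a negative log2 fold change. Slc1a2 made up much of that sum, and the other 9 markers, a sum taken after the values were seen, had 1790, 3970 and 1660 CPM in mutant libraries 1, 2 and 3, against 3810, 4070 and 3950 CPM in control libraries 1, 2 and 3. Gfap, the intermediate filament gene of astrocytes, was at 281, 1200 and 223 CPM in mutant libraries 1, 2 and 3, against 1180 to 1380 CPM in control libraries. Slc1a2, the astrocyte glutamate transporter gene, had 3210 to 4770 CPM in mutant and 1810 to 2010 CPM in control libraries. Fibroblast markers summed to 211, 769 and 235 CPM in mutant libraries 1, 2 and 3, against 1160 to 1280 CPM in control libraries, and 8 of 8 were below the controls in every mutant library, as were 11.5% of all tested genes. Endothelial markers summed to 117 to 222 CPM in mutant and 297 to 326 CPM in control libraries, and microglial markers to 279 to 693 CPM in mutant and 487 to 632 CPM in control libraries. Over all libraries edgeR called 5 neuron markers higher, 1 endothelial marker lower and 0 of the other lists. Without mutant library 2 it called 8 neuron markers higher, and 1 astrocyte marker higher and 6 lower. It then called 5 precursor, 8 fibroblast, 4 microglial and 7 endothelial markers lower. In that comparison 13.2% of all genes were called higher and 13.8% lower.

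**Figure D5:**
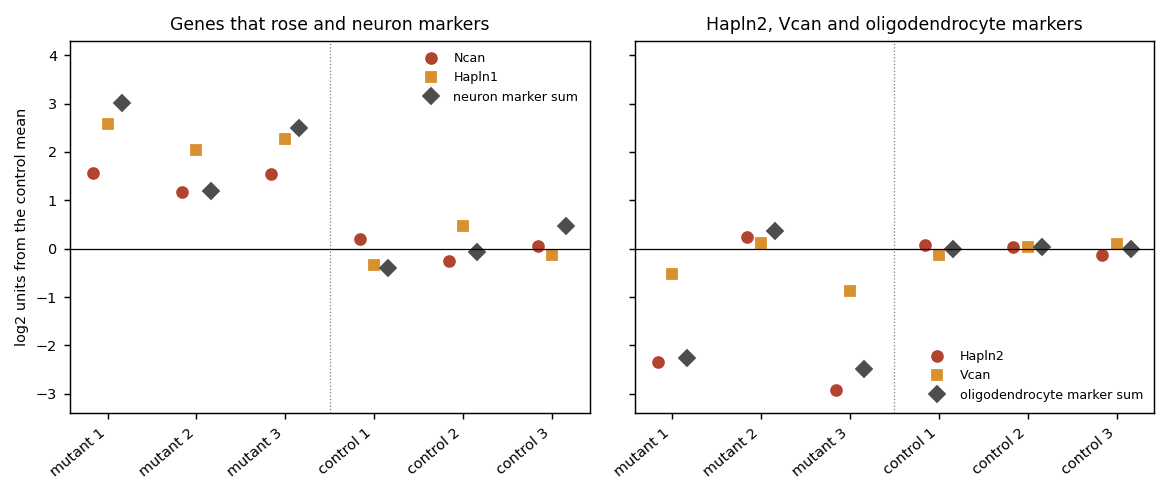
Left, log2 distance from the control mean (y axis) of Ncan, Hapln1 and the sum of 10 neuron markers; right, that of Hapln2, Vcan and the sum of 10 mature oligodendrocyte markers, in each library (x axis), mutant left of control. Ncan and Hapln1 are above the controls in all 3 mutant libraries, while Hapln2 stands at -2.34, 0.25 and -2.92 where the oligodendrocyte sum stands at -2.27, 0.37 and -2.49.

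The genes whose profile over the 6 libraries was most like that of a member were sought among 10201 candidates. The measure was the root mean square difference of log2 CPM values, each gene centred on its own mean. Candidates were tested genes with a mean of at least 10 CPM over the 6 libraries, which a gene can pass through the group where it is higher. Members, and symbols such as those of gene models or small RNAs, were left out of the candidates. For Hapln2 they were Mbp (0.065 log2 units), Klk6 (0.096) and Cryab (0.133), where the median over all candidates was 1.31. For Ncan they were Trerf1 (0.125), Ppargc1b (0.146) and Anks1b (0.172), against a median of 0.775, and for Hapln1 they were Filip1 (0.146), Prkcb (0.234) and Sowaha (0.259), against 1.20. For Tnr they were Rtf1 (0.050), Hbegf (0.070) and Rmdn3 (0.077), against 0.449, and for Vcan they were Rnf220 (0.040), Fnta (0.053) and Pigh (0.056), against 0.483. Between members, Vcan and Bcan were 0.183 apart, Ncan and Hapln1 0.583, and Hapln1 and Hapln2 2.28.

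Other genes of this matrix were taken from lists. Of 21 tested genes of chondroitin sulfate synthesis 1 rose and 2 fell, with a median log2 fold change of -0.02. Over all tested genes 2.95% were called higher and 0.337% lower. Chsy3, a chondroitin synthase gene that extends the sugar chain, had 15.3, 6.2 and 22.9 CPM in mutant libraries 1, 2 and 3, against 0.891, 2.07 and 2.70 CPM in control libraries 1, 2 and 3 (log2 fold change 2.96, edgeR adjusted p 0.0313). Chst3, which sulfates chondroitin at the carbon that gives the 6-sulfated form, had 5.23, 10.2 and 3.77 CPM in mutant libraries 1, 2 and 3, against 21.2, 21.4 and 22.6 CPM in control libraries 1, 2 and 3 (-1.77, edgeR adjusted p 0.0425). Chst14, the dermatan sulfotransferase gene, was at 1.51 to 2.05 CPM in mutant and 5.43 to 7.26 CPM in control libraries (-1.85, edgeR adjusted p 0.0408). The next by p were Dse at -1.04, Xylt1 at 0.77 and Chst12 at -0.73 (edgeR adjusted p 0.127, 0.269 and 0.388). Chst14 lost its call by limma-voom (adjusted p 0.0551). Without mutant library 2 the list had 2 genes called higher and 3 lower, where 13.2% of all genes were called higher and 13.8% lower. Xylt1 at 1.06 and Dse at -1.31 were among the list genes then called (edgeR adjusted p 0.0109 and 0.00928). Chst13 was not tested, having 0 CPM in each mutant library and 0.297 to 1.12 CPM in control libraries.

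Of 14 tested proteases that cleave lecticans, and their inhibitors, 0 rose and 1 fell, with a median of -0.71. The same test called 2.95% of all tested genes higher and 0.337% lower. Adamts1, a metalloprotease gene of the family that cuts lecticans, had 19.8, 33.5 and 18.9 CPM in mutant libraries 1, 2 and 3, against 57.4, 70.5 and 54.9 CPM in control libraries 1, 2 and 3 (log2 fold change -1.34, edgeR adjusted p 0.0403). Mmp14, Timp3 and Adamts9 were at -1.21, -1.04 and -0.82 (edgeR adjusted p 0.0988, 0.211 and 0.219), and 5 genes of the list were below the controls in every mutant library, as were 11.5% of all tested genes. Without mutant library 2 the list had 0 genes called higher and 6 lower, where 13.8% of all genes were called lower. Mmp14, Timp3 and Adamts9 were then at -1.58, -1.67 and -1.12 (edgeR adjusted p 0.00233, 0.000204 and 0.0183).

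Of 10 other chondroitin sulfate or small leucine-rich proteoglycans 2 rose and 0 fell, with a median of -0.07. Among all tested genes 2.95% were called higher and 0.337% lower. Cspg5, neuroglycan C of neurons and glia, had 86.9, 54.9 and 72.4 CPM in mutant libraries 1, 2 and 3, against 35.2, 27.0 and 36.1 CPM in control libraries 1, 2 and 3 (log2 fold change 1.12, edgeR adjusted p 0.0497). Its call was lost under upper quartile scaling, total counts and without the row of Rn45s. Epyc, the gene of epiphycan, had 6.26, 0.680 and 4.26 CPM in mutant libraries 1, 2 and 3, against 0.347, 0.166 and 0.083 CPM in control libraries 1, 2 and 3 (4.22, edgeR adjusted p 0.0458), from 199 counts in all. For mutant library 2 alone Epyc was at 1.77 (edgeR adjusted p 0.701), and by limma-voom over all libraries it lost its call (adjusted p 0.114). Decorin (Dcn) and lumican (Lum), also markers of fibroblasts, were at -1.69 and -1.50, and Spock2 at 0.78 (edgeR adjusted p 0.131, 0.149 and 0.151). Without mutant library 2 the list had 3 genes called higher and 5 lower, where 13.2% of all genes were called higher and 13.8% lower. Dcn was then at -2.71, Lum at -2.42 and Spock2 at 0.98 (edgeR adjusted p 2.87e-05, 0.000123 and 0.00368). Each of the 6 called genes of these lists lost its call without any 1 of the 3 controls, mutant library 1 or mutant library 3.

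Of 15 tested genes of hyaluronan synthesis, turnover and receptors 0 passed by edgeR, with 3 at an unadjusted p under 0.05, 2 lower by DESeq2 and 1 lower by limma-voom. Their median was -0.08. At that unadjusted threshold stood 3133 of all 16315 tested genes. Of all genes DESeq2 called 1163 higher and 482 lower, and limma-voom called 418 higher and 88 lower. The hyaluronan receptor genes Cd44, Lyve1 and Stab1 were at -1.39, -1.25 and -1.22 (edgeR adjusted p 0.0923, 0.145 and 0.179). The synthase genes Has1, Has2 and Has3 were at -0.08, 0.92 and 0.04. Of 19 tested receptors and partners 0 passed by edgeR, with 4 at an unadjusted p under 0.05, 1 higher by DESeq2 and 0 by limma-voom, and a median of -0.23. Cntn1, an axonal partner of tenascin-R, had 480, 222 and 328 CPM in mutant libraries 1, 2 and 3, against 216, 192 and 206 CPM in control libraries 1, 2 and 3 (log2 fold change 0.75, edgeR adjusted p 0.223). Rtn4rl1 was at 1.47 and Fbln1 at -1.42 (edgeR adjusted p 0.171 and 0.245). The other tenascin genes Tnxb and Tnn were at -1.68 and 0.64 (edgeR adjusted p 0.144 and 0.829), Tnn from 39 counts in all. Without mutant library 2 the hyaluronan list had 4 genes called lower and the receptor list 4 called higher and 6 called lower, where 13.2% of all genes were called higher and 13.8% lower. Cd44, Lyve1 and Stab1 were then at -1.99, -1.78 and -1.97 (edgeR adjusted p 0.000181, 0.00258 and 0.000318). Cntn1 was at 0.99, Rtn4rl1 at 1.64 and Fbln1 at -2.71 (edgeR adjusted p 0.00536, 0.0336 and 4.3e-05), and Tnxb at -2.74 (edgeR adjusted p 8.27e-05).

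In the 4 libraries with over 1000 Xist counts, which hold 1 control, the log2 fold changes of Ncan and Hapln1 were 1.69 and 1.92 (edgeR adjusted p 0.758 and 0.696). In that comparison 0 of all genes passed by edgeR, with 894 at an unadjusted p under 0.05. A fit of all 6 libraries with a term for high Xist, added after the values were seen, gave 1.69 and 1.92 as well (edgeR adjusted p 0.368 and 0.381), with 0 of all genes called and 1237 at an unadjusted p under 0.05. These fits tested 17075 and 16315 genes, in that order. In both fits the mutant libraries are set against control library 2 alone, so neither separates sex from genotype with replicates. The counts of Ncan were 7074, 3868 and 5370 in mutant libraries 1, 2 and 3, against 2606 in control library 2, the control with high Xist.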

How the data were processed

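RNA from optic nerve was amplified (NuGEN Ovation v2) before Nextera XT library construction, per the labels' protocols. The files hold raw counts per gene, which the authors obtained with featureCounts 1.4.6-p4 from read pairs, using exons and ignoring strand, per the file headers. TopHat and mm10 are named in the submitters' processing notes. Column 6 of the deposited files, the exon length, gave levels per kb.

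Genes were tested with edgeR 4.0.16 (R 4.3.3) by quasi-likelihood F tests, with TMM scaling, filterByExpr (minimum count 10), no covariate and Benjamini-Hochberg adjustment over 16315 genes. SEs were derived as the absolute log2 fold change over the root of F. CPM use TMM-scaled library sizes. Log2 distances of members and profiles add 0.5 CPM, and log2 distances of marker sums add nothing. The steps were tested on simulated data. No library duplicated another within sampling noise (chi-square per degree of freedom at least 45.6), so each counted once. Replicate numbers follow the order of deposit.

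Alternatives were other scalings, no filter, DESeq2 1.42.0, limma-voom 3.58.1, each library left out, subsets, and a term for over 1000 Xist counts (added after seeing the data). Named were all members, the called genes of each list with up to 3 more by p, up to 2 of the highest genes of some marker lists (1 such gene is not reported here), and the 3 most similar profiles of 5 members. Members and lists were chosen with earlier results of these data known. Kiaa1199 was not matched, and Mmp3 and Rtn4rl2 were not tested.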

Additional observations from a re-analysis of the deposited data

How the results depend on the processing

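The directions of Ncan, Hapln1, Tnr, Tnc, Hapln3 and Acan held under all 16 alternatives, with log2 fold changes of 1.17 to 1.69 for Ncan and 1.92 to 2.69 for Hapln1. Scaling by DESeq2 size factors, upper quartile or total counts, removal of Rn45s, no filter, DESeq2 and limma-voom each called Ncan and Hapln1 and no other member. Leaving out 1 library gave 0 to 4 members called, 51 to 4551 genes called over all and 0 to 34 called in the other matrix lists, where all libraries gave 2, 537 and 6. The highest counts were without mutant library 2. Over all genes, no filter called 870, DESeq2 called 1645, and mutant library 2 alone called 222. DESeq2 called 15 genes of the other matrix lists and mutant library 2 alone called 0. Libraries with over 1000 Xist counts gave 0 genes over all by edgeR, 0 members and 0 list genes, with 1 control left, and a term for high Xist over all 6 libraries, chosen after seeing the data, also gave 0, 0 and 0.

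The sign of Bcan turned without mutant library 1 (0.03) or mutant library 3 (0.05), and leaving out 1 library gave -0.43 to 0.05. For mutant library 2 alone signs turned for Bcan (0.40), Vcan (0.12), Hapln2 (0.25), Hapln4 (-0.65), Xylt1 (-0.07) and Tnn (-5.48), and Tnn was at -0.37 in the libraries with high Xist and -0.36 with the Xist term. The cause was not tested. Fits with a lone library in a group assume that it varies like the other group. Low counts limit Acan, Hapln3, Epyc and Tnn, and PCR copies are not independent molecules. No paired analysis was possible because the labels carry no replicate numbers.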
